A study of Homo sapiens with 4 samples.

Results

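The exons described here belong to genes whose symbols start with PRPF, LSM, SNRP or SNRNP, the families that hold most core proteins of the spliceosome. SNRNP70, SNRPA and SNRPC, which encode the proteins specific to the U1 particle, were left out. The table lists 65601 skipped exon events. Junction reads averaged 20 or more over the 4 libraries in 54503 of them, and 170 of these lay in 37 PRPF, LSM and SNRP genes. An event is a set of 3 neighbouring exons of which the middle one is included or skipped, and a junction read is a read that spans a splice junction. The 170 events concerned 130 different exons, since 73 events shared their exon with another event of the set, and 50 shared their skipping junction. Before the minimum on reads the same 37 genes held 189 events. Just inside the minimum were events of LSMD1, at a mean of 20.5 reads, and of LSM4 and LSM10, at 21.5 each, and just outside it was an event of LSM14B, at 18.25. The prefixes also took in genes outside the spliceosome: LSM1, LSM12, LSM14A, LSM14B, LSM10 and LSMD1, the last of which is named NAA38 in GENCODE release 29 and encodes a subunit of an N-terminal acetyltransferase.

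The cells were 293T, a human embryonic kidney line that is easily transfected. Per the labels, 2 libraries were made from cells in which a gapmer antisense oligonucleotide (ASO) targeted SNORD89, a C/D box small nucleolar RNA, and the other 2 from cells without an ASO. A gapmer pairs with its target RNA, which RNase H then cuts. The dose was 70 nM, delivered by lipid; fresh medium followed after 24 hours and RNA extraction at 48 hours. The untreated cells carry the treatment "none" beside a transfection protocol identical to that of the ASO cells. It is unclear if lipid was added to them, and no control oligonucleotide is named. Polyadenylated RNA was sequenced in read pairs of 150 bases. No label or header tells which set of libraries in the table is the ASO group, so each direction given is that of the first set relative to the second. The library numbers within a set are names and pair nothing.

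The spliceosome is built from small nuclear ribonucleoproteins, each a small nuclear RNA with its proteins. A ring of Sm proteins sits on the U1, U2, U4 and U5 RNAs, and a ring of LSM proteins binds the end of U6 RNA, while a related LSM ring in the cytoplasm takes part in messenger RNA decay. PRPF proteins carry the names of yeast pre-RNA processing mutants and include a scaffold, a kinase and partners of helicases that turn the assembled particles into an active enzyme. Several splicing factor genes hold a so-called poison exon, whose inclusion brings an early stop codon and exposes the transcript to nonsense-mediated decay.

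Summed over all events, the libraries had 38613055 and 39012939 junction reads (first set) and 42868431 and 43929373 (second set). The PRPF, LSM and SNRP events were deep. Their median event had 748, 688.5, 651.5 and 700.5 reads in the 4 libraries in that order, against 222, 199, 157 and 171 for all tested events. Of markers used to check the labels, VIM, which is expressed in 293T, had 3859 to 5561 junction reads, PAX2 had 13 to 27, and LIN28B and NEFL had no event. PTPRC, ALB, PECAM1 and DES, markers of blood, liver, endothelial and muscle cells, had none either. With skipped exon reads only, this is a weak check of identity, and the RNA level of SNORD89 itself was not analysed here.

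Most events of these genes were at nearly full inclusion. The inclusion level is the share of the including form among both forms of an event, after correction for the length of each. Other forms of the gene are not in it. Its mean was above 0.95 in 119 events (70%), below 0.05 in 19 (11.2%) and in between in 32 (18.8%). For all tested events the shares were 66.1%, 9.30% and 24.6%. The difference between the sets was under 0.01 in 118 of 170 events (69.4%), against 45.5% of all tested events, and its median size was 0.004 against 0.011. The median exon was 110 nt long, against 118 nt, and 40.6% of the exons had a length divisible by 3, against 40%. GENCODE release 29 transcripts placed 113 of the events wholly in coding sequence, 19 partly, and 33 outside it, and 5 could not be matched, of which 4 were in PRPF3 and 1 was in SNRNP40.

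Calls were few. Both lay in genes of proteins that associate with the U1 particle, a number too small to mark that group. An event was called when the authors' deposited table gave a false discovery rate (FDR) under 0.05 and a difference in inclusion level of at least 0.1. By this rule 2 of 170 events (1.18%) were called, 1 in each direction, where the background over all tested events was 2.71% (1.34% for higher and 1.37% for lower). The called events were a PRPF39 exon, more included in the first set, and a PRPF40B exon, less included in the first set. At an FDR under 0.05 with any difference there were 6 events (3.53%), against 5.72% of all tested events. The first set was the higher one in 5 of them (2.94%, background 3.03%) and the lower one in 1 (0.588%, background 2.68%). The authors' deposited table had an unadjusted p-value under 0.05 for 12 events (7.06%), against 14.3%. Both libraries of one set lay above both of the other in 36 events (21.2%), against 22.9%. Among the 32 events of intermediate inclusion, 3 had an FDR under 0.05 (9.38%), against 14.5% of such events in the whole table, and the sets did not overlap in 10 (31.2%), against 33.7%. None of these shares was above its background.

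A quasi-binomial model that estimates the scatter between libraries was fitted, and it gave all events a single dispersion of 2.66. The scatter of a single event thus did not enter its p. The model called 0 of 170 events at a Benjamini-Hochberg adjusted p under 0.05, against 16 of 54503 (0.0294%). At an unadjusted p under 0.05 the model found 9 events (5.29%), against 6.72%. Limma, run on log2 of inclusion over skipping reads, called 0 of these events and 0 in the whole table. It found 6 at an unadjusted p under 0.05, against 4.87% of all tested events. In the intermediate events the libraries of the second set lay further apart (median gap 0.0989) than those of the first (0.0300) and than the means of the sets (0.042). The order was the same over all tested events of intermediate inclusion, at 0.0876, 0.0493 and 0.055, so it was not particular to these genes. An exact permutation test of 2 libraries against 2 cannot give a p below 0.33, so none was used on single events. The plot of difference against read number shows how the larger differences lay among the events with fewer reads.

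**Figure D1:**
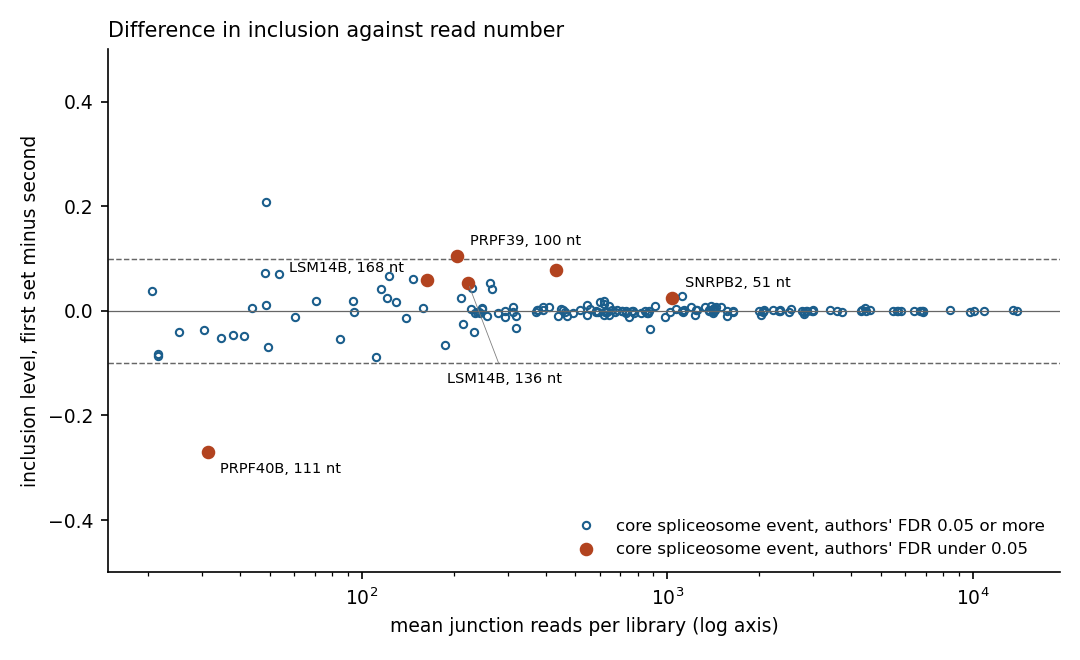
Difference in inclusion level (first set minus second, vertical axis) against mean junction reads per library (horizontal log axis) for the 170 PRPF, LSM and SNRP events; filled points, labelled where described, have an FDR under 0.05 in the authors' deposited table and dashed lines mark a difference of 0.1. Only 3 events lie beyond the dashed lines, all with a mean of at most 205.25 reads, and 118 lie within 0.01 of zero.

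The Sm ring genes were the most deeply read of the role groups, and their inclusion levels differed little between the sets. SNRPB, SNRPD1, SNRPD2, SNRPD3, SNRPE, SNRPF and SNRPG held 28 events with a median of 4362 mean reads, of which 19 were included above 0.95, 5 below 0.05 and 4 in between. The difference between the sets ran from -0.035 to 0.006, and 0 of 28 events had an FDR under 0.05 in the authors' deposited table. The deepest of intermediate inclusion was the 23-nt coding exon of SNRPG (ENSG00000143977.9, chr2:70516482-70516504, minus strand, hg19), included at 92.9% and 93.0% (first set) and at 92.2% and 92.6% (second set). The second set lay below the first without overlap, by less than the counting error of any of the 4 values, whose widest 95% Wilson interval in the first set was 92.0% to 93.8%. In another event of the same SNRPG exon the mean inclusion level was 0.997 (first set) and 1 (second set). The 54-nt exon of SNRPD3 (chr22:24963952-24964005, plus strand) stood at 90.0% and 90.6%, and at 90.1% and 91.9% in the libraries of the second set. The sets overlapped, on 1670 to 2500 reads per library. A 193-nt exon of SNRPD3 with the same start and the same skipping reads stood at 96.9% and 97.1% (first set). In the second set it stood at 97.0% and 97.5%. Neither value is a share of all SNRPD3 transcripts.

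The 41-nt exon of SNRPE (chr1:203831310-203831350, plus strand) lies in a processed transcript of release 29, outside the coding sequence. In its deepest event, inclusion was 80.5% and 83.1% (first set) and 80.5% and 90.2% (second set). Library 2 of the second set stood alone above the other 3. The authors' deposited table lists -0.035 for the difference with FDR 0.522, and without that library the difference was 0.0133, with the opposite sign. In another event of the same exon, inclusion was 98.8% and 98.1% (first set) and 98.5% and 99.2% (second set). The level thus depends on the event, and is not a share of all SNRPE transcripts. SNRPG, SNRPE and SNRPF have 20, 9 and 4 named pseudogenes in release 29, and reads shared with such copies cannot be told apart from these counts.

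The LSM ring genes were likewise steady. LSM1, LSM2, LSM3, LSM4, LSM5 and LSM7 held 21 events, 15 of them included above 0.95, with differences from -0.082 to 0.053 and 0 events at an FDR under 0.05 in the authors' deposited table. LSM1 belongs to the cytoplasmic ring that promotes decapping, and its 116-nt coding exon (minus strand) was the deepest of intermediate inclusion. The first-set libraries included it at 93.8% and 92.5%, the second-set libraries at 91.9% and 88.5%. The second set was lower without overlap, and the authors' deposited table lists 0.029 for the difference with FDR 0.217. Without library 2 of the second set the difference was 0.0122, and without library 1 of that set it was 0.0461. The 28-nt exon of LSM5 was at 88.0% and 95.6% in one set and 89.7% and 83.3% in the other, in library order, so its sets overlapped (FDR 0.191 in the authors' deposited table).

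Of the proteins specific to U2, SNRPA1 and SNRPB2 had 10 events, 8 above 0.95 and 2 below 0.05. SNRPB2, whose protein binds a hairpin of U2 RNA, held the event with the lowest FDR of all 170. The 51-nt coding exon (ENSG00000125870.6, chr20:16719497-16719547, plus strand, exon 5 of 7 of SNRPB2-201) was skipped in 1 of 1047 and 3 of 941 reads (first set) and in 3 of 1092 and 40 of 1069 (second set). Inclusion was thus 99.9%, 99.6% and 99.6% in 3 libraries and 95% (93.3% to 96.3%) in library 2 of the second set, which alone carried the skipping. The authors' deposited table lists 0.025 for the difference with FDR 0.00128. The quasi-binomial model gave an unadjusted p of 0.000285 and an adjusted p of 0.165. It used the dispersion of 2.66, where the event's own was 17.3. Without library 2 of the second set the difference was 0.000906. The exon is printed in the sense direction, from the release 29 transcript, with its last 3 bases in capitals because they form the exon's side of the downstream splice site. They read as the CAG of the common exon end.
SNRPB2, 51-nt exon: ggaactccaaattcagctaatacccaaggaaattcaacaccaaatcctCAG

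The 101-nt exon of SNRPA1 (chr15:101833498-101833598, minus strand) had no inclusion read among 989 and 1293 reads in the first set, which by the Wilson interval allows up to 0.231% and 0.177%. In the second set 4 of 1760 and 3 of 1425 reads gave 0.136% and 0.126%. These values lie inside the range that the first set allows, so a difference was not detectable at this depth.

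The tri-snRNP, the joined U4, U5 and U6 particle, is where the catalytic core is delivered. U4/U6 protein genes PRPF3, PRPF31 and SNRNP27 held 14 events with differences from -0.004 to 0.018. U5 protein genes PRPF6, PRPF8, SNRNP200 and SNRNP40 held 27 with differences from -0.007 to 0.009. Of these 41 events 38 were included above 0.95, and 0 had an FDR under 0.05 in the authors' deposited table. PRPF8 is the scaffold of the catalytic core, and SNRNP200 the helicase that unwinds U4 from U6. A 262-nt exon of SNRNP200 was the one U5 event below 0.05, and it is described with the stop-carrying exons. The deepest U5 event of intermediate inclusion was a 222-nt exon of SNRNP40 (chr1:31733802-31734023, minus strand), included at 5.92%, 5.82%, 6.05% and 5.92% in the 4 libraries in order, on 832 to 1323 reads. The values lay closer together than their counting error. A 96-nt exon of PRPF3 (chr1:150300016-150300111, plus strand) was included at 8.86%, 6.24%, 7% and 6.44% in the same order, with overlap. Neither of these exons matched a release 29 transcript by spacing, so their place relative to the coding sequence is not given.

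SNRNP25 and SNRNP48 encode proteins of the U11/U12 particle, which recognises the rare minor class of introns. Their 3 events had differences from -0.052 to 0.025, and 0 had an FDR under 0.05 in the authors' deposited table. The deepest was a 100-nt exon of SNRNP25 that was nearly always skipped, described with the stop-carrying exons.

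The genes of proteins that sit on the U1 particle, PRPF39 and PRPF40B among them, held 17 events, 6 of them of intermediate inclusion. Of the 17, 3 had an FDR under 0.05 in the authors' deposited table: the first set was higher in 2 and lower in 1. The background was 5.72% of all tested events and 14.5% of those of intermediate inclusion. The PRPF39 exon of 100 nt (ENSG00000185246.13, chr14:45579097-45579196, plus strand) lay in the decay transcript PRPF39-205 of release 29, outside its coding sequence. Its inclusion had 113 and 99 first-set reads, against 134 and 120 for skipping, and 63 and 54 second-set reads, against 109 and 129. First-set inclusion was 33.5% (28.2% to 39.3%) and 33.1% (27.5% to 39.2%), and second-set inclusion was 25.7% (20.3% to 32.0%) and 20% (15.4% to 25.6%). Both libraries of the first set were above both of the second, though the interval of library 1 of the second set reached into those of the first. The authors' deposited table lists 0.105 for the difference with FDR 0.0423. The quasi-binomial model gave an unadjusted p of 0.0252 and an adjusted p of 0.652, and without library 2 of the second set the difference was 0.0760, which ends the call.

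PRPF39 had other exons that were mostly skipped in their events. A 335-nt exon was included at 25.6%, 23.6%, 11.1% and 24.9%, first set before second. A 163-nt exon that shares its skipping junction was included at 20.5%, 21.7%, 11.8% and 22.1%. In both, library 1 of the second set was low and the other 3 were close together, and the FDR in the authors' deposited table was 0.628 and 1. The library that was low here was not the lowest for the 100-nt exon.

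PRPF40B was read thinly. Its 111-nt coding exon (ENSG00000110844.9, chr12:50026797-50026907, plus strand, exon 6 of 25 of PRPF40B-201) had 47 and 36 reads in the first-set libraries, of which 15 and 6 were skipping reads, and 19 and 23 in the second-set libraries, of which 2 and 0 were. First-set inclusion was 55.0% (40.1% to 69.1%) and 74.1% (55.0% to 87.0%), and second-set inclusion was 83.0% (55.6% to 95%) and 100% (77.4% to 100%). The sets did not overlap, but the intervals did, except those of the lowest and the highest library. The authors' deposited table lists -0.27 for the difference with FDR 0.0113, and the quasi-binomial model an unadjusted p of 0.0602 and an adjusted p of 0.759. Leaving out library 1 of the first set brought the difference to -0.174. The exon keeps the reading frame when skipped. It is printed whole, in the sense direction from the release 29 transcript, with the last 3 bases in capitals, since these differ from those of the SNRPB2 exon.
PRPF40B, 111-nt exon: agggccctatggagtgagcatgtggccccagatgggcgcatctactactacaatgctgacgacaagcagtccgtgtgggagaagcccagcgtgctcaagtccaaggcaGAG
Across the matched exons of the PRPF, LSM and SNRP genes, 61 of 125 distinct exons (48.8%) ended in AG and 80.8% in G, against 55.3% and 80.2% of 41915 matched exons in the whole table.

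**Figure D2:**
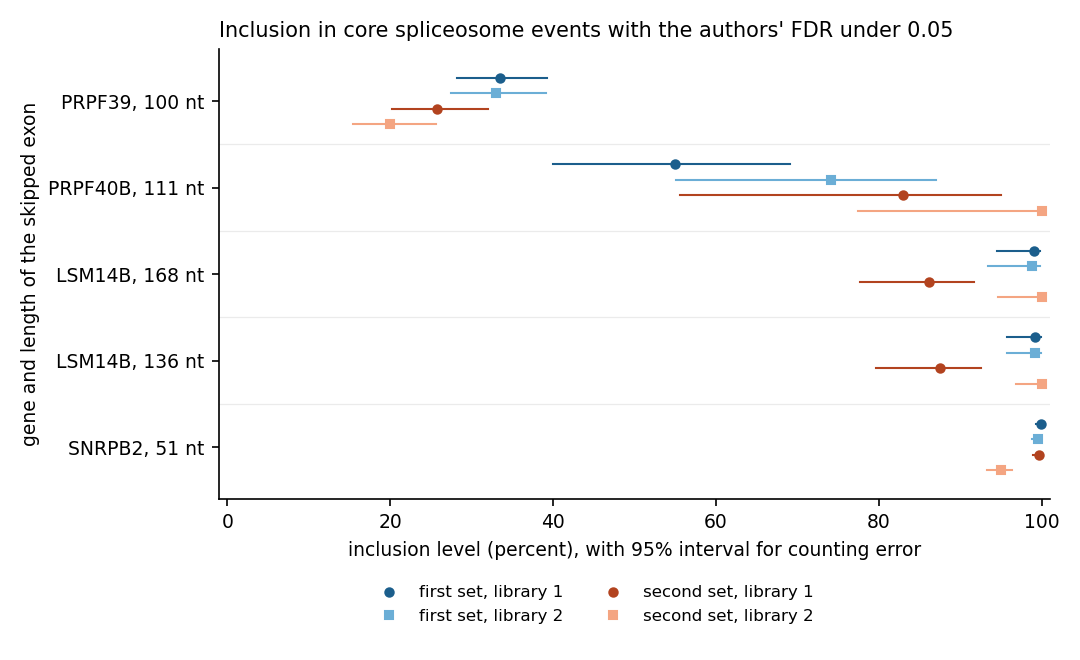
Inclusion level in percent (horizontal axis) in each of the 4 libraries for 5 of the events with an FDR under 0.05 in the authors' deposited table, with bars for the 95% Wilson interval of counting error. The PRPF39 libraries split by set (33.5% and 33.1% against 25.7% and 20%), while in SNRPB2 and LSM14B a single library of the second set stands away from the other 3.

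The other PRPF genes act at different steps: PRPF19 is the ubiquitin ligase of its own complex, PRPF4B a kinase, PRPF18 a factor of the second chemical step and PRPF38A a protein of the precatalytic spliceosome. With PRPF38B, they held 20 events with differences from -0.088 to 0.070, and 0 had an FDR under 0.05 in the authors' deposited table. The 53-nt exon of PRPF38B (chr1:109236212-109236264, plus strand, outside the coding sequence of PRPF38B-201) was included at 3.93% and 5.98% by the first-set libraries and 7.31% and 9.21% by the others. The second set was higher without overlap, and the authors' deposited table lists -0.033 for the difference with FDR 0.165. PRPF4B had 5 events of intermediate inclusion in exons that release 29 places outside the coding sequence of the matched transcript. In the event of a 77-nt exon inclusion was 83.5%, 82.1%, 84.4% and 94.4%, where library 2 of the second set again stood apart.

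LSM14A and LSM14B, proteins of cytoplasmic P-bodies that repress translation, had most of the events among the remaining LSM domain genes. With LSM10, part of the U7 particle of histone mRNA processing, and LSM12 they held 26 events. Of these, 2 had an FDR under 0.05 in the authors' deposited table, where the background was 5.72% of all tested events. Both were in LSM14B and rested on the same skipping junction, which had 1 read in each first-set library and 12 and 0 in the second-set libraries. Read against that junction, the 168-nt exon was included at 99.0% and 98.8%, then 86.1% and 100% in the second set (FDR 0.0185, authors' deposited table). Against the same junction the 136-nt exon was included at 99.2% in both first-set libraries, then 87.5% and 100% (FDR 0.0243, authors' deposited table). The sets overlapped in both, and without library 1 of the second set the differences were -0.0112 and -0.00778, opposite in sign. A 214-nt form of the second exon read against that junction gave the largest difference of the set that was not called, 0.208 (FDR 0.195, authors' deposited table). Other events of these exons differed. In a deeper event the 168-nt exon was at 78.3%, 74.9%, 83.2% and 61.6% in library order. In a further event it was at 91.0%, 86.0%, 91.6% and 76.8%, and library 2 of the second set was the lowest in both. Another event of the 136-nt exon was at 98.7%, 100%, 97.9% and 100%, and a further one at 100%, 99.3%, 100% and 100%. In its deepest event the LSM14B exon of 117 nt was included at 62.9%, 43.6%, 61.5% and 50.2% in library order. The gap between libraries of a set was thus larger than between the sets. In another event of that exon inclusion was 94.2%, 100%, 91.8% and 100%.

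The deepest event of intermediate inclusion among these genes was in LSM14A. Its 57-nt exon (ENSG00000257103.4, chr19:34717313-34717369, plus strand, exon 10 of 11 of LSM14A-201) had first-set inclusion of 43.0% (39.5% to 46.6%) and 39.4% (36.0% to 42.9%) and second-set inclusion of 35.9% (32.2% to 39.7%) and 46.8% (42.3% to 51.3%). The lowest and the highest library were both in the second set, and the difference in the authors' deposited table was -0.001. LSMD1 was the one gene outside the role groups. Its 248-nt exon was included at 20%, 18.2%, 18.9% and 12% in library order, on 6 to 28 reads. In another event of that exon the mean inclusion level was 0.0156 (first set) and 0.00745 (second set).

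Exons that bring a stop codon were looked for in the reading frame of a coding transcript that skips them. Of 165 matched events, 30 had such a transcript, and in 20 of these, from 16 genes, the exon carried a stop in that frame. Inclusion was below 0.05 in 13 of the 20 and from 0.05 to 0.95 in 7, and in 0 was it above 0.95. Of the 10 without a stop, 4 were above 0.95, 3 below 0.05 and 3 in between. Release 29 annotates the stop of a decay transcript inside the exon in 11 events, and in the 9 of these with a usable frame the position was the same as that computed here. The reading frames used are the annotation's, and release 29 transcripts were matched to the hg19 events by exon spacing.

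The stops lay early in most of these exons. Printed here are the exon bases up to and including the stop, which is in capitals, for the exons the values turn on: a Sm protein, an LSM ring protein, a minor spliceosome protein, PRPF39 and LSM14A. Of the called PRPF39 exon only bases 58 to 87 are given, since its stop starts at base 85.
SNRPB, 124-nt exon: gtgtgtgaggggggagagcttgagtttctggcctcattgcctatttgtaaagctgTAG
LSM4, 105-nt exon: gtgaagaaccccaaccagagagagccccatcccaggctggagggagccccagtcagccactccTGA
SNRNP25, 100-nt exon: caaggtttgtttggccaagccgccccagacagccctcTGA
PRPF39, 163-nt exon: acgctgtcattgatgctcTAA
PRPF39, 100-nt exon: cttcgtccttccttacagaaactagtcTAG
LSM14A, 57-nt exon: aaaaccacagcttttggacccTAA
In LSM14A the stop is the end of the coding sequence of LSM14A-201 and not an early stop. Inclusion there changes the last residues of the protein. LSM12 is a like case: 195 nt of its 241-nt exon are coding in the protein-coding transcript LSM12-202, and the stop starts at base 196. The stop-carrying exons of SNRPD2, PRPF19, SNRPA1 and PRPF38B were matched to protein-coding transcripts and lay outside their coding sequence. The called PRPF39 exon and the stop-carrying exons of PRPF4B and LSMD1 also lay outside the coding sequence of their matched transcripts. Those were a decay, a retained-intron and a processed transcript, in that order. In PRPF18 only 21 nt of the exon are coding in the matched protein-coding transcript, and the computed stop starts at base 37. For all of these exons an early stop in the matched transcript was not shown.

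SNRPB is known for a conserved poison exon through which its protein level feeds back on its own splicing, and its 124-nt exon (ENSG00000125835.13, chr20:2447838-2447961, minus strand) carries the stop printed above. It had 60 inclusion reads of 6936 and 68 of 7716 (first set) and 63 of 9542 and 69 of 9348 (second set). First-set inclusion was 0.474% (0.368% to 0.610%) and 0.483% (0.381% to 0.612%), and second-set inclusion was 0.361% (0.283% to 0.462%) and 0.404% (0.319% to 0.511%). The first set was higher without overlap, the intervals of all 4 libraries overlapped, and the FDR in the authors' deposited table was 1. Polyadenylated RNA holds what is left after decay, so a steady-state share of this kind does not tell how often the exon is spliced in.

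The other exons with a stop spread over a wide range of inclusion. The SNRPD2 exon of 115 nt was included at 1.51%, 1.72%, 1.58% and 1.68% in library order in its deepest event, so the sets overlapped. In another event of the same exon inclusion was 79.8%, 79.4%, 77.7% and 84.4%, on 104 to 169 reads. Neither level is a share of all SNRPD2 transcripts. The LSM4 exon was at 0.294% and 0.419%, then at 0.672% and 0.267% for the second set, so that the highest and the lowest library belonged to the same set. The SNRNP25 exon (chr16:106321-106420, plus strand) was at 0.255%, 0.211%, 0.183% and 0. The zero came from 1504 reads, which allow up to 0.153%. SNRNP200 had 3, 1, 1 and 0 inclusion reads in the libraries in order, of 1025 to 1438 reads. These counts are too small for a comparison. LSM12 was at 2.60%, 2.57%, 4.30% and 2.28%, and PRPF18 at 19.0%, 10.5%, 13.3% and 11.2%. In both genes the gap within one set was larger than that between the sets. Of the 20 exons the sets did not overlap in 7, where 22.9% of all tested events did not. An FDR under 0.05 in the authors' deposited table was found for 1 of the 20, the PRPF39 exon of 100 nt, against 5.72% of all tested events.

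**Figure D3:**
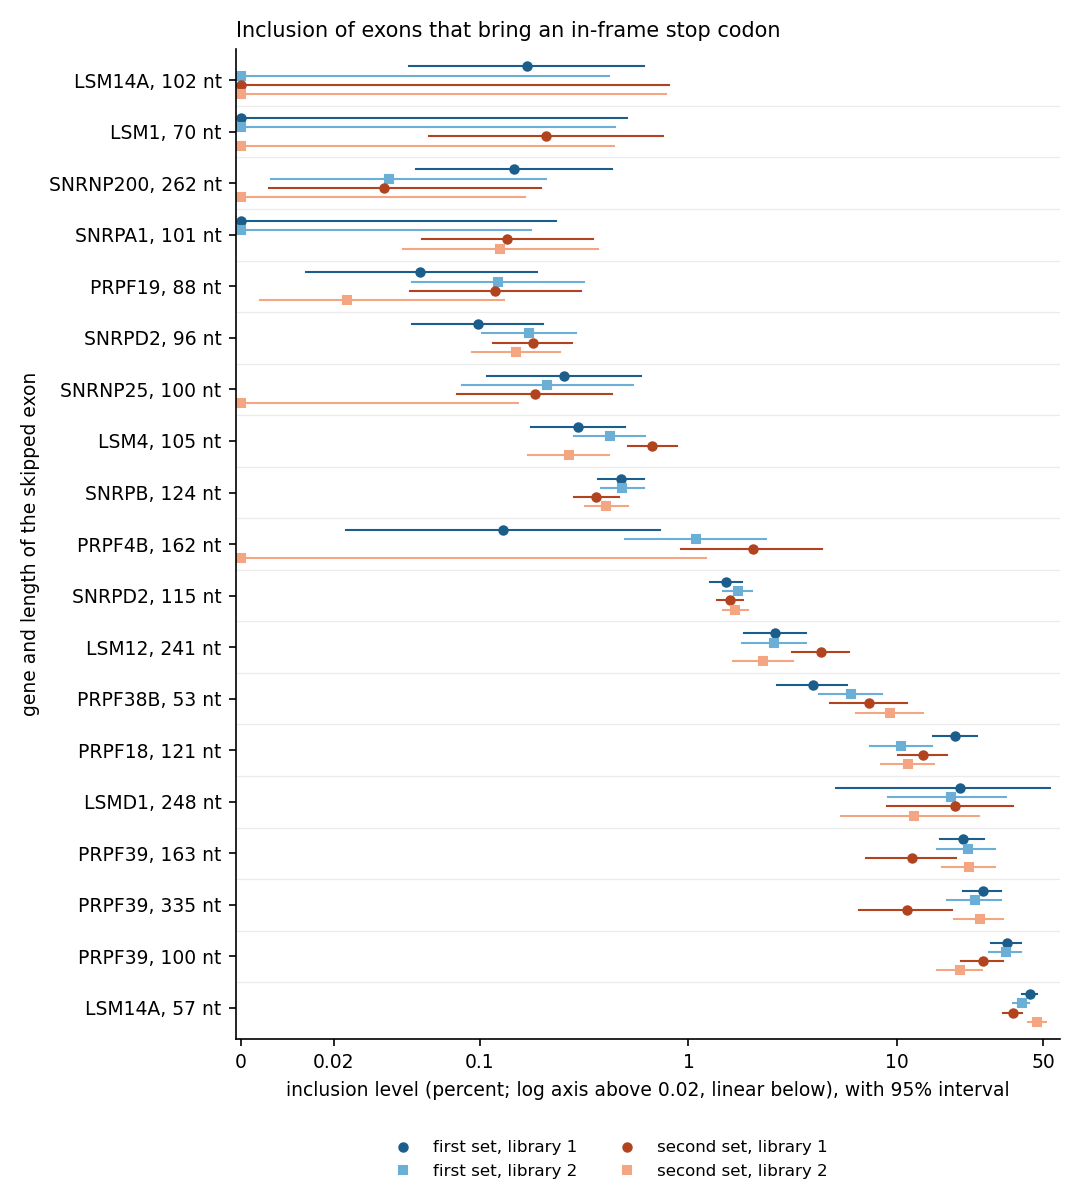
Inclusion level in percent (horizontal axis, logarithmic above 0.02 and linear below) of 19 exons with an in-frame stop, in each of the 4 libraries, with bars for the 95% Wilson interval of counting error. Values run from 0 to 46.8%, and the intervals of the sets overlap in SNRPB although its 4 values split by set.

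Genes that work with these proteins, listed by function, were examined in the same table. Of 64 listed genes 59 had events, 270 in all, and 8 of these were called (6 with more inclusion in the first set and 2 with less) in the authors' deposited table, beside the background of 2.71%. The quasi-binomial model called 0 of 270 at an adjusted p under 0.05 and found 20 at an unadjusted p under 0.05. The other tri-snRNP proteins, such as EFTUD2 and SART1, had 0 called of 68. The PRPF19 complex and the step factors had 2 of 70, in SLU7, which helps choose the 3′ splice site, with a difference of 0.419, and in PPIE, with a difference of 0.102. The genes of Sm ring assembly by the SMN complex had 1 of 61, in GEMIN7. The minor spliceosome had 1 of 21, in RNPC3. The decay partners of the cytoplasmic LSM ring had 4 of 50: DDX6 (0.102), XRN1 (-0.308) and the same EDC3 exon with different neighbours (-0.233 and 0.14), all from the authors' deposited table.

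The GEMIN7 exon of 123 nt was the deepest of these. Its inclusion level was 0.850 and 0.829 (first set) and 0.742 and 0.733 (second set), on 364 to 529 reads. The libraries of each set were close and the sets did not overlap. The authors' deposited table lists 0.102 for the difference with FDR 0.0108, while the adjusted p of the quasi-binomial model was 0.498. RNPC3, a protein of the U11/U12 particle, had a 59-nt exon at 0.273 and 0.311, then 0.0974 and 0.189 for the second set, again without overlap (FDR 0.0181, authors' deposited table). SLU7 had only 12 to 27 reads per library.

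The number of reads itself differed between the sets in a way that followed position along the transcript. Reads were expressed per 1000000 junction reads of the library and averaged within each set. For the deepest event of each of the 37 genes the second set was above the first in 24 and below in 13. Over all 9982 tested gene symbols it was above in 32.1% and below in 67.9%. The sets did not overlap in 17 of the 24 and 11 of the 13, against 16.8% of all tested genes on the higher side and 50.8% on the lower. The genes compared differ in how far their exons lie from the 3′ end, which moved with the ratio over all events but not in every gene. The 7 Sm genes were at 1.10 to 1.36 times the first set. PRPF4B was at 0.377 (2380 nt from the 3′ end), PRPF38B at 0.442 (3148 nt) and SNRNP48 at 0.319 (3783 nt). LSM3, which forms part of both LSM rings, was at 1.26 times the first set at 3180 nt, and the Sm gene SNRPD1 at 1.19 at 4655 nt. Genes at like distances thus differed in the ratio. PRPF40B, at 1.79 times, rested on 27 to 66 reads. Less RNA per cell and fewer cells with the RNA cannot be told apart in bulk samples.

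Within long genes the ratio of second to first set fell from the 3′ to the 5′ end. In SNRNP200 it was 1.03 for the exon with 913 nt of exon sequence between it and the 3′ end of the transcript, 0.932 at 1333 nt and 0.309 at 5968 nt. In PRPF8 it was 0.563 at 2671 nt, 0.402 at 3733 nt, 0.218 at 5890 nt and 0.281 at 6910 nt. At 5890 nt the first-set libraries had 58.4 and 35.5 reads per 1000000 and the second-set libraries 8.98 and 11.5. Over the 165 matched events the median ratio was 1.20 under 500 nt, 1.13 from 500 to 1000 nt, 0.919 up to 2000 nt, 0.589 up to 4000 nt and 0.319 beyond, the last from only 10 events of 5 genes. All tested events followed the same order beyond 500 nt, with medians of 0.983, 1.05, 0.880, 0.634 and 0.444. As a description, Spearman's rho was -0.499 over the 165 events of the 37 genes, which share libraries and, within a gene, transcripts, and -0.540 over 52963 tested events.

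Distances are those of the matched transcript, which in release 29 can end before the full 3′ end of the gene. The called PRPF39 event lay 2203 nt from the 3′ end with a read ratio of 0.681. Whether the read loss bears on inclusion levels was not tested.

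**Figure D4:**
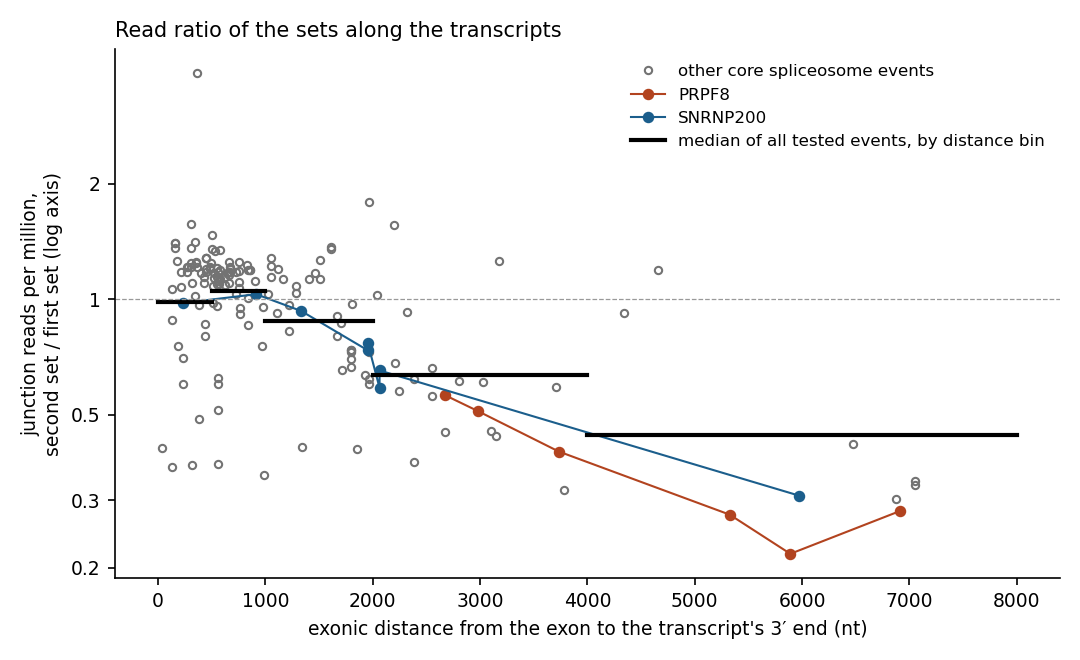
Junction reads per 1000000 in the second set divided by the first (vertical log axis) against the exonic distance from the exon to the 3′ end of the transcript in nucleotides, for 165 events, with PRPF8 and SNRNP200 joined by lines and black bars for the median of all tested events in each distance bin. PRPF8 falls from 0.563 to 0.218 before a last point at 0.281, and SNRNP200 falls from 1.03 at 913 nt to 0.309.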

How the data were processed

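Each library is one 293T culture labelled as a biological replicate. Reads were trimmed with cutadapt and aligned with STAR to hg19, per the submitters' processing notes; versions, settings and annotation are not given in the sources used here. The one table has the rMATS layout for skipped exons on junction reads, per the file headers. It holds, as deposited, inclusion and skipping read counts and inclusion levels (fraction) for each library, joined in 1 cell per set, the authors' p-value and FDR, and the deposited difference in inclusion level, a score of first set minus second. The unit of the joined cells was recorded as other.

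Computed here: inclusion levels from reads and form lengths, Wilson 95% intervals, which cover counting error only since read copies without molecular identifiers are not independent molecules, and a quasi-binomial model of inclusion against skipping reads (R 4.3.3, limma 3.58.1 for moderated dispersion, floor 1) over 54503 events with Benjamini-Hochberg adjustment. Moderation gave all events one dispersion of 2.66. Limma used a pseudocount of 0.5. On simulated data for first set against second set, over 54503 events with 200 changed by 0.3, the model found 158 with binomial scatter and 107 with the measured scatter, and limma found 0. With the measured scatter 6.14% of the model's calls were false. That scatter was the model's own single dispersion, whereas before moderation the chosen events ran from 0.0101 (SNRPA1) to 17.3 (SNRPB2). The changed events had read shares from 0.05 to 0.95. The simulation does not tell what would be found outside these settings. Events were matched to GENCODE release 29 (GRCh38) through the distances between their exon ends in the gene, with no conversion of coordinates. All coordinates are hg19 as in the table, 1-based, and all sequences come from GENCODE release 29 transcripts.

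Events with values were chosen as follows: those called, the deepest of intermediate inclusion in each role (otherwise the least included), the 5 lowest FDR not called and the 5 deepest of intermediate inclusion. Events beyond these (stop-carrying exons, LSM5, PRPF4B, the other PRPF39 and LSM14B exons) were chosen after their values were seen. The members and lists were chosen with earlier results of these data known. Alternatives were other read minimums, thresholds, tests and left-out libraries. Some results for single genes and exons are not reported here; the counts include them.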

Additional observations from a re-analysis of the deposited data

How the results depend on the processing

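The count of 2 called events became 3 with a minimum of 10 reads, 1 with a minimum of 50, 4 with no minimum, 5 with a difference of at least 0.05, 1 with a difference of at least 0.2 and 0 at an FDR under 0.01; it was 2 with 1 event per exon and with sets that also do not overlap. With each library left out in turn only the difference was computed again, while the FDR stayed the authors' own from all 4 libraries. The count then ran from 1 to 2, the lower without library 2 of the second set, where PRPF39 fell under 0.1. Whether the FDR would stay under 0.05 without a library was not tested. The quasi-binomial count of 0 was 0 under the other tests, read minimums and dispersions run, among them a dispersion prior by read depth that was chosen after seeing the data. With each library left out it ran from 0 to 4. The 4 came without library 1 of the second set, with SNRPB2, SNRPE and SNRPA1 among their genes, and that fit, with a lone library assumed to vary like the first set, called 1756 events of the whole table; the cause was not tested. Of 102 alternatives for the 17 chosen events, 96 moved the difference by less than the spread between libraries and 6 by more, and 6 events changed sign under at least 1, of the kind given beside SNRPE and LSM14B. No paired analysis was possible because the columns carry no replicate numbers. Depth limits the shares under 1% and the PRPF40B and LSMD1 events.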
